A study of Homo sapiens with 12 samples.

Results

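Expression of the dual-specificity MAPK phosphatase genes was described in RNA sequencing libraries of 2 human cancer cell lines. The 10 members were chosen by symbol (DUSP1, DUSP2, DUSP4, DUSP5, DUSP6, DUSP7, DUSP8, DUSP10, DUSP14 and DUSP16), and they hold 14 of the 40295 Ensembl identifiers in the deposited gene table. TOV-112D, an ovarian adenocarcinoma line whose p53 carries R175H, was exposed for 3 h to the vehicle DMSO, to UCI-1001 or to UCI-1014 (2 libraries each). UCI-1001 and UCI-1014 are small molecules that the study examined as candidate correctors of mutant p53. For UCI-1014 the sources used here give no dose. Saos-2, an osteosarcoma line that lacks p53, was sequenced after 16 h of induction without p53 (p53-null) or with inducible wild-type p53 (p53-WT, 3 libraries each). Per the study's methods p53 is switched on with doxycycline in the engineered line, and p53-null is the parental line. The p53-null libraries carry the 16 h label too.

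Dual-specificity MAPK phosphatases remove phosphate from both the threonine and the tyrosine of the activation loop of MAP kinases and so switch ERK, JNK and p38 off. Many of their genes are themselves switched on by MAP kinase signalling or stress, which makes them part of a negative feedback loop. DUSP1, DUSP2, DUSP4 and DUSP5 are nuclear and inducible. DUSP6 and DUSP7 are cytoplasmic and prefer ERK. DUSP8, DUSP10 and DUSP16 prefer JNK and p38, and DUSP14 is a small atypical member without the kinase-binding domain. Several of the inducible genes, DUSP1, DUSP2 and DUSP5 among them, have been described as p53 targets.

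The upstream sequences of 4 genes that rose with at least one compound are shown, since these genes moved together in TOV-112D. They are the 250 bases before the RefSeq gene start (GRCh38.p14), 5′ to 3′ on the gene's own strand. Capitals mark the palindromic cAMP response element TGACGTCA and the E-box CACGTG, the only motifs put in capitals. All 4 genes lie on the minus strand. The windows are chr5:172771196-172771445 for DUSP1, chr11:1572272-1572521 for DUSP8, chr2:96145441-96145690 for DUSP2 and chr12:12562864-12563113 for DUSP16.
DUSP1: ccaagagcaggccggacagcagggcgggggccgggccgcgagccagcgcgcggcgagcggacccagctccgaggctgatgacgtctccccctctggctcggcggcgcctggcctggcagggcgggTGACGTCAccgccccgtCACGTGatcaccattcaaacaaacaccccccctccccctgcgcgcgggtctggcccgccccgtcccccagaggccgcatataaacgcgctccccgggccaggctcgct
DUSP8: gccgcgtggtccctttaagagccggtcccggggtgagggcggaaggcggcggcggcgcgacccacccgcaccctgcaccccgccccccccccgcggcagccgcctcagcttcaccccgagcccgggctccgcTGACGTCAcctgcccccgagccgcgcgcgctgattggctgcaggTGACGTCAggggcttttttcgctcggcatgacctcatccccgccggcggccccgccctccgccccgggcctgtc
DUSP2: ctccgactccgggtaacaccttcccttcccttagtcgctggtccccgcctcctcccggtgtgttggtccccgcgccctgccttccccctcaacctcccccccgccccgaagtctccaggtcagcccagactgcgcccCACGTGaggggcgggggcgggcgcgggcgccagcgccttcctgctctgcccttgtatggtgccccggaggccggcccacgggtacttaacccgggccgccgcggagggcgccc
DUSP16: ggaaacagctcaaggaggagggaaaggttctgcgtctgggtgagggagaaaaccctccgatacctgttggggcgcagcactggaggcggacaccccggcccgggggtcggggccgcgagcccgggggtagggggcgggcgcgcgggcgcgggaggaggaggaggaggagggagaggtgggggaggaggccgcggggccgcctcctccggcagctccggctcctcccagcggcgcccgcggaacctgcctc

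The DUSP8 window held the cAMP response element at 2 places, 118 to 111 and 74 to 67 bases before the start. The DUSP1 window held it once, 125 to 118 bases before the start. Of all 35116 RefSeq promoter windows of the same length, 1.65% held this motif. The E-box stood 108 to 103 bases before the start of DUSP1 and 113 to 108 before that of DUSP2, and 6.34% of all windows held it. Windows were available for 8 of the 10 members, with 2 windows for DUSP10. Neither motif was in the windows of DUSP16, DUSP6, DUSP7, DUSP10 or DUSP14. On both strands, none of the members' windows held the AP-1 site TGANTCA (6.57% of all windows), the inverted heat shock unit GAANNTTC (5.78%), the C/EBP-ATF composite site TGATGNAA (3.14%) or a CArG box (1.16%). The antioxidant response core TGANNNNGC (35.2% of all windows) was in those of DUSP1, DUSP6, DUSP8 and DUSP10, and in DUSP1 it overlapped the E-box by 2 bases. A p53 half-site (5.57% of all windows) was found, among the members' windows, only in that of DUSP7. A match is a run of letters and not a measured binding site, and the absence of a match concerns these letters in this window alone.

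Per the GENCODE 44 annotation of GRCh38, DUSP1 spans chr5:172768096-172771195, DUSP2 chr2:96143169-96145440, DUSP5 chr10:110497907-110511533, DUSP6 chr12:89347235-89352501 and DUSP7 chr3:52048919-52056571. DUSP8 spans chr11:1554051-1572271, DUSP10 chr1:221701424-221742089, DUSP16 chr12:12473282-12562863 and DUSP14 chr17:37489891-37513501. DUSP5 and DUSP14 are on the plus strand and the other genes named here on the minus strand. Reads of DUSP16 were split in the deposited table between 2 identifiers with identical values, and those of DUSP14 between 2 identifiers of which the one outside GENCODE 44 held 96.9% of the counts. DUSP8 had 2 identifiers with identical values and another, ENSG00000273793, outside GENCODE 44 and with values of its own. ENSG00000273793 held 3.60% of the DUSP8 counts over all libraries, but 24 of 26, 6 of 18 and 23 of 29 counts in the p53-null libraries. Counts were summed by symbol, so the DUSP8 levels in p53-null rest on it in large part.

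Libraries held 17762027 to 24629558 counts. The defining markers of the lines did not all follow the labels. Of 6 osteoblast markers, ALPL, SP7 and BGLAP stayed below 1 CPM (counts scaled to a common library size) in every library labelled Saos-2, and COL1A1 was at 1.30 to 1.93 CPM in p53-null. Of 6 epithelial and ovarian markers, KRT8, KRT18 and PAX8 stayed below 1 CPM in every TOV-112D library, while KRT18 was at 422 to 585 CPM in the libraries labelled Saos-2. The summed epithelial and ovarian list was at 3.97 to 6.16 CPM in TOV-112D and 757 to 1134 CPM in the libraries labelled Saos-2. The part of these marker levels in the results below was not tested. Replicate 1 stood apart from replicates 2 and 3 in both Saos-2 groups, where the chi-square of their counts, divided by its degrees of freedom, was 22.1 to 37.0 against 3.31 to 4.07 for the pair of replicates 2 and 3. The labels do not say whether replicates were separate cultures, so p-values measure the spread between these libraries, which may be technical.

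The 10 genes were expressed at very different levels, and the 2 lines used different members. On the TPM scale, where abundance is given per length so that genes can be compared, their summed level was 224 ± 2.72 TPM (SD, n = 2) in DMSO, 294 ± 17.2 in UCI-1001 and 314 ± 24.9 in UCI-1014. It was 219 ± 27.7 TPM (SD, n = 3) in p53-null and 330 ± 36.7 in p53-WT. The cytoplasmic ERK phosphatase DUSP6 made up 58.7% to 60.1% of the sum in the DMSO libraries and 32.4% to 39.5% in UCI-1014. In the p53-null libraries the nuclear ERK phosphatase DUSP5 made up 40.2% to 42.6%, and DUSP6 9.90% to 11.2%. DUSP14 took 13.5% to 18.5% in p53-null and 24.8% to 29.1% in p53-WT. The lengths used were those of the GENCODE transcripts. For DUSP14 the GENCODE identifier held 3.12% of the counts, so its TPM and shares rest on the lengths of a minor identifier. The JNK and p38 phosphatase DUSP16 took 8.33% to 8.68% in DMSO and 17.0% to 17.3% in UCI-1014. DUSP4 never exceeded 0.290 TPM and DUSP10 never exceeded 0.357 TPM in TOV-112D.

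**Figure D1:**
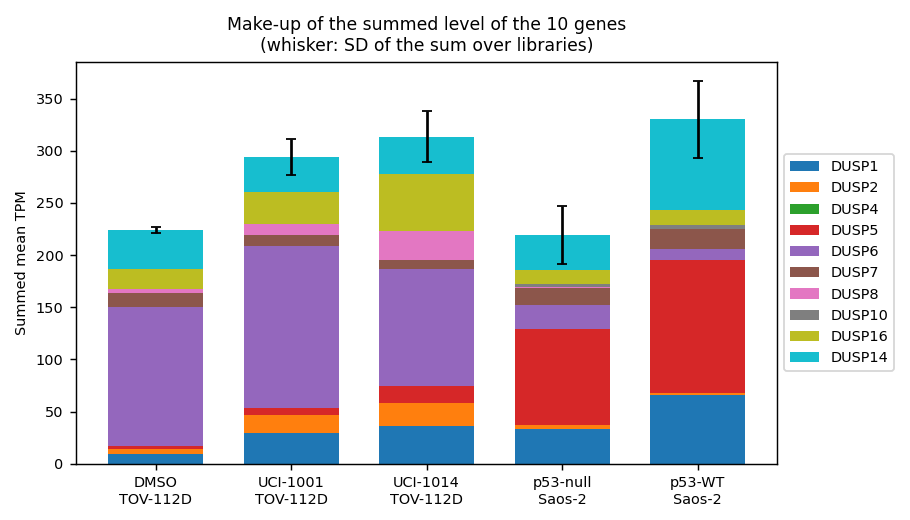
Stacked bars of the mean TPM of each of the 10 phosphatase genes (linear axis, colours by gene) in the 5 groups, with the SD of the summed level over libraries as whiskers. DUSP6 forms the largest segment in TOV-112D and DUSP5 in Saos-2.

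In TPM, DUSP1 stood highest in p53-WT (54.5 to 71.1) and lowest in DMSO (8.75 to 9.35), and the ranges of UCI-1014, p53-null and UCI-1001 overlapped in between. DUSP2 stood highest in UCI-1014 (17.7 to 25.7) and UCI-1001 (13.7 to 20.2), which overlapped, followed by DMSO, p53-null and p53-WT (2.11 to 2.53) without overlap. DUSP5 formed 5 separate ranges, from 109 to 142 in p53-WT, 75.2 to 102 in p53-null and 13.5 to 18.8 in UCI-1014, down to 6.83 in UCI-1001 and 2.65 to 3.69 in DMSO. For DUSP1, DUSP2 and DUSP5 the DMSO libraries lay below those of both compounds without overlap. With 2 libraries per group, how many of all genes separate in this way was not counted.

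DUSP6 also formed 5 separate ranges, with UCI-1001 highest (153 to 157 TPM), then DMSO (130 to 136), UCI-1014 (107 to 117), p53-null (18.5 to 26.7) and p53-WT (7.65 to 12.6). DUSP7 ran from a mean of 18.8 TPM in p53-WT to 8.83 in UCI-1014, and DMSO and UCI-1001 were the neighbours that did not overlap. DUSP8 ran from 26.0 to 30.0 in UCI-1014 through 9.97 to 10.9 in UCI-1001 and 3.52 to 3.84 in DMSO to 0.384 to 0.630 in the Saos-2 groups, which overlapped. The order of DUSP16 was the same, with 51.1 to 56.3 in UCI-1014, 30.2 to 31.2 in UCI-1001, 18.8 to 19.3 in DMSO and 11.5 to 16.1 in the overlapping Saos-2 groups. DUSP14 stood at 84.1 to 89.0 in p53-WT and at 31.7 to 38.6 in the other 4 groups, whose neighbours overlapped. DUSP10 stood at 2.31 to 3.99 in the overlapping Saos-2 groups and below them in TOV-112D. DUSP4 stood at 0.145 to 0.290 in the overlapping UCI-1014, p53-null and p53-WT groups, at 0.0824 to 0.115 in UCI-1001 and at 0 and 0.0528 in DMSO.

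**Figure D2:**
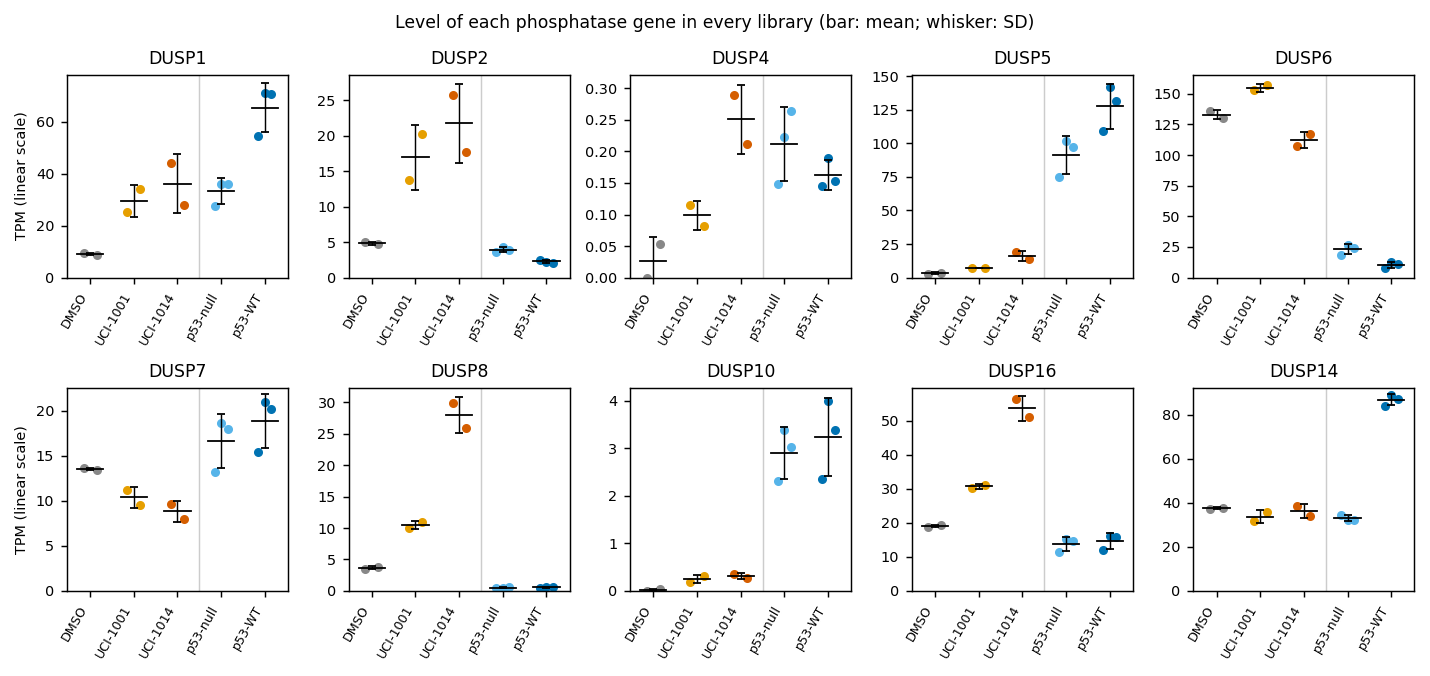
Level in TPM (linear axes from 0, one panel per gene) in each library of the 5 groups, with points for libraries, a bar for the mean and whiskers for the SD. DUSP8 and DUSP16 rise from DMSO through UCI-1001 to UCI-1014, and DUSP14 is set apart in p53-WT at 84.1 to 89.0 TPM.

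The first question was how the compounds changed these genes in TOV-112D within 3 h. DUSP10 did not pass the filter on low counts, and DUSP4 passed it only through the UCI-1014 libraries, so that its being tested depended on its level there. Of the other 8 members, 6 rose and 1 fell with UCI-1001, where 7.73% of the 14985 genes tested rose and 5.22% fell (edgeR quasi-likelihood test, Benjamini-Hochberg adjusted p under 0.05). With UCI-1014, 5 of the 8 rose and 2 fell, where 22.7% of all tested genes rose and 21.5% fell. The 8 members had a median log2 change of 0.89 for UCI-1001, beside 0.00 over all genes, and of 1.77 for UCI-1014, beside -0.01. Both comparisons use the same 2 DMSO libraries, so their values are set side by side and not counted as independent. Without DMSO replicate 1, 4 members rose with UCI-1001 and 0 fell. In bulk RNA, fewer cells of a type and less RNA per cell cannot be told apart.

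DUSP1, DUSP2 and DUSP5, 3 of the 4 nuclear inducible phosphatase genes, rose with both compounds. DUSP1, an immediate early gene whose product prefers p38 and JNK, was at 10.8 and 10.3 CPM in DMSO, 29.2 and 39.5 in UCI-1001 and 52.5 and 34.0 in UCI-1014. Its libraries did not overlap with DMSO, and its log2 fold change was 1.70 ± 0.22 (SE, adjusted p = 0.000848) with UCI-1001 and 2.02 ± 0.22 (adjusted p = 3.73e-05) with UCI-1014. DUSP2 was at 4.64 and 4.44 CPM in DMSO, 12.7 and 18.7 in UCI-1001 and 24.4 and 17.1 in UCI-1014. It rose by 1.79 ± 0.23 (adjusted p = 0.000848) and 2.18 ± 0.23 (adjusted p = 3.00e-05) on the log2 scale. DUSP5, which acts on ERK in the nucleus, was at 3.91 and 5.58 CPM in DMSO, 10.1 and 10.2 in UCI-1001 and 28.6 and 20.9 in UCI-1014. The log2 fold changes of DUSP5 were 1.10 ± 0.20 (adjusted p = 0.00570) and 2.38 ± 0.18 (adjusted p = 3.79e-06). Without DMSO replicate 1 the DUSP5 change with UCI-1001 was 0.86 and no longer called (adjusted p = 0.0690).

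DUSP4, a nuclear ERK and JNK phosphatase, was barely detected. It had 0 and 3 counts in the DMSO libraries, 7 and 5 in UCI-1001 and 15 and 13 in UCI-1014. The ratio of counts to DMSO, scaled for library size, was 3.77 with UCI-1001 (exact 95% interval 1.02 to 20.8) and 9.77 with UCI-1014 (3.02 to 50.2), and these intervals cover counting error only. DUSP4 entered the edgeR test through its UCI-1014 counts, so its p-value with UCI-1014 is not given. Its call with UCI-1014 was lost without DMSO replicate 1 or UCI-1014 replicate 1. With UCI-1001 the edgeR test gave an adjusted p of 0.238.

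The JNK and p38 phosphatase genes DUSP8 and DUSP16 rose with both compounds. DUSP8 was at 7.16 and 7.96 CPM in DMSO, 20.3 and 22.1 in UCI-1001 and 62.2 and 54.98 in UCI-1014. The 3 groups were well separated, and DUSP8 rose 2.80-fold with UCI-1001 (log2 1.49 ± 0.11, adjusted p = 1.95e-05) and 7.74-fold with UCI-1014 (log2 2.95 ± 0.10, adjusted p = 9.20e-09). DUSP16 was at 53.2 and 55.7 CPM in DMSO, 85.5 and 88.7 in UCI-1001 and 164 and 151 in UCI-1014. It rose 1.60-fold (log2 0.68 ± 0.06, adjusted p = 4.95e-05) and 2.89-fold (log2 1.53 ± 0.05, adjusted p = 1.48e-08). DUSP10, the remaining JNK and p38 phosphatase, had 0 and 1 counts in DMSO, 5 and 8 in UCI-1001 and 8 and 7 in UCI-1014. Its scaled ratio to DMSO was 12.3 with UCI-1001 (exact 95% interval 1.84 to 521) and 15.7 with UCI-1014 (2.42 to 661), with no test across genes.

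The cytoplasmic ERK phosphatase genes changed little, and DUSP7 fell with both compounds. DUSP7 was at 27.3 and 27.6 CPM in DMSO, 22.5 and 19.5 in UCI-1001 and 20.0 and 16.8 in UCI-1014. Its log2 changes were -0.39 ± 0.10 (adjusted p = 0.0244) and -0.58 ± 0.10 (adjusted p = 0.000802). DUSP6, a well known transcriptional readout of ERK activity, was at 166 and 163 CPM in DMSO, 187 and 192 in UCI-1001 and 134 and 149 in UCI-1014. DUSP6 rose by 0.20 ± 0.05 on the log2 scale with UCI-1001 (adjusted p = 0.0225) and fell by 0.21 ± 0.05 with UCI-1014 (adjusted p = 0.00596). With UCI-1001 the DUSP6 and DUSP7 calls were lost when either DMSO replicate or UCI-1001 replicate 2 was left out, and with UCI-1014 the DUSP6 call was lost without DMSO replicate 1 (adjusted p = 0.0556). DUSP14 was at 32.6 and 33.9 CPM in DMSO, 27.7 and 31.5 in UCI-1001 and 34.6 and 31.2 in UCI-1014, with log2 changes of -0.17 (95% interval -0.35 to 0.01) and -0.02 (-0.19 to 0.16).

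**Figure D3:**
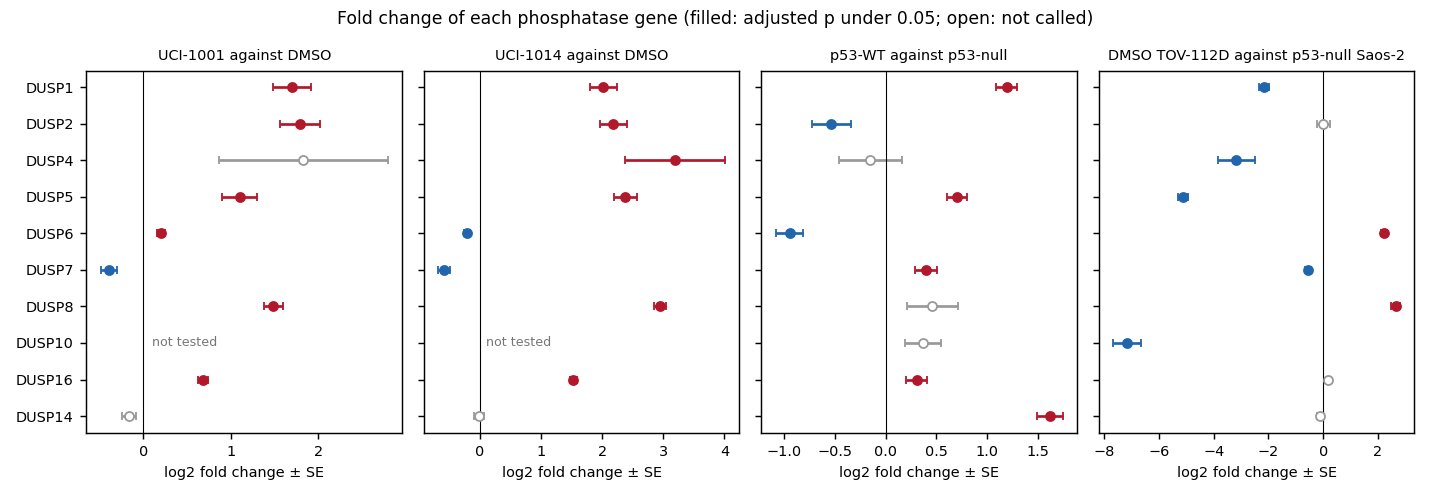
Log2 fold change with its SE (x axes, each panel with its own range) of the 10 genes in 4 comparisons. Filled points passed an adjusted p under 0.05 (red higher, blue lower) and open points did not. DUSP1, DUSP2, DUSP5, DUSP8 and DUSP16 lie to the right of 0 with both compounds, while DUSP7 lies to the left. The points of DUSP4 with the compounds, and of DUSP4 and DUSP10 in the last panel, rest on 0 to 3 DMSO counts. There these genes passed the filter only through libraries in which they were high, so a filled point is not read as a call.

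The replicates of each compound stood apart in DUSP1 and DUSP2. UCI-1001 replicate 2 was above replicate 1 and UCI-1014 replicate 1 was above replicate 2 for DUSP1 and DUSP2. Among the other members, DUSP6 and DUSP7 did not follow this order, while DUSP5, DUSP8, DUSP14 and DUSP16 did. The same order held for FOS, at 56.8 and 92.7 CPM in UCI-1001 and 99.8 and 66.4 in UCI-1014, and for JUN, at 177 and 253 and at 354 and 251. These genes encode the immediate early AP-1 subunits, and their part in the spread of DUSP1 and DUSP2 was not tested.

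The compounds were then compared with each other as 1 pair, with p-values adjusted over all genes. Since no dose is known for UCI-1014, a difference of compound and a difference of dose cannot be told apart. DUSP8, DUSP5 and DUSP16 were higher with UCI-1014, and DUSP6 was lower, so that 3 of the 8 members other than DUSP4 and DUSP10 were higher and 1 lower, where 16.2% and 11.5% of all tested genes were. DUSP8 differed by 1.47 ± 0.08 (SE) on the log2 scale (adjusted p = 1.36e-06) and DUSP5 by 1.28 ± 0.16 (adjusted p = 0.000307). DUSP16 differed by 0.85 ± 0.05 (adjusted p = 2.27e-06) and DUSP6 by -0.42 ± 0.05 (adjusted p = 0.000198). The test did not call DUSP1, with a difference of 0.32 and a 95% interval of -0.08 to 0.72, or DUSP2, with 0.40 (-0.02 to 0.82). Nor did it call DUSP7 at -0.19 (-0.42 to 0.03) or DUSP14 at 0.15 (-0.03 to 0.33). DUSP4 was at a mean of 0.783 CPM in UCI-1014 and 0.298 in UCI-1001. Its test is not given because it was entered through the UCI-1014 libraries. DUSP10, not tested, was at a mean of 0.419 CPM in UCI-1014 and 0.324 in UCI-1001, and its libraries overlapped. The results for DUSP1 and DUSP2 turned on single libraries here. Without UCI-1014 replicate 1 the DUSP1 difference was -0.02, and without UCI-1014 replicate 2 both DUSP1 (0.60, adjusted p = 0.0149) and DUSP2 (0.63, adjusted p = 0.0399) were called, which made 5 members higher. DUSP2 was also called without UCI-1001 replicate 2 (0.70, adjusted p = 0.0260).

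The next comparison set the p53-WT against the p53-null libraries labelled Saos-2. DUSP14 and DUSP1 were the members that differed most, both higher with p53-WT, and DUSP6 was lower. In all, 5 of the 10 members were higher and 2 lower, where 32.9% of the 15076 genes tested were higher and 32.1% lower. The median log2 difference of the members was 0.38, beside -0.01 over all genes. DUSP14 was at 38.4, 30.5 and 31.9 CPM in p53-null and 114, 98.1 and 97.0 in p53-WT. The groups lay far apart, and the difference was 1.62 ± 0.12 (SE) on the log2 scale, or 3.06-fold (adjusted p = 2.21e-06). DUSP1 was at 40.3, 44.9 and 47.0 CPM in p53-null and 97.0, 103 and 103 in p53-WT, a difference of 1.19 ± 0.10 (adjusted p = 4.67e-06).

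DUSP5, already abundant in p53-null at 139.9, 161 and 161 CPM, was at 248, 260.2 and 244 CPM in p53-WT and differed by 0.70 ± 0.10 (adjusted p = 0.000166). DUSP7 was at 33.2 to 40.2 CPM in p53-null and 47.0 to 51.8 in p53-WT (0.40 ± 0.11, adjusted p = 0.0102). DUSP16 was at 41.0 to 46.6 and 52.3 to 56.7 CPM (0.31 ± 0.10, adjusted p = 0.0225). These 3 genes did not overlap between the groups, and how many of all genes did not was not counted. The DUSP16 call was lost without p53-WT replicate 2 (adjusted p = 0.0694) or replicate 3 (adjusted p = 0.0896).

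DUSP6 was at 28.9, 35.7 and 34.0 CPM in p53-null and 14.6, 19.5 and 17.3 in p53-WT, a difference of -0.94 ± 0.14 (adjusted p = 0.000176). Every p53-WT library thus lay below every p53-null library. DUSP2 was at 4.20, 4.26 and 4.12 CPM in p53-null and 3.62, 2.59 and 2.47 in p53-WT, and differed by -0.53 ± 0.19 (adjusted p = 0.0322). That call was lost when any one library other than p53-WT replicate 1 was left out (adjusted p of 0.0644 to 0.118). DUSP4, DUSP8 and DUSP10 were not called, with differences of -0.15 (95% interval -0.82 to 0.52), 0.46 (-0.09 to 1.01) and 0.37 (-0.02 to 0.76). The DUSP8 value sums identifiers with unlike counts. The GENCODE identifier ENSG00000184545 had 1, 6 and 3 counts in p53-null and 11, 10 and 17 in p53-WT, without overlap, and on its own did not pass the filter on low counts. ENSG00000273793 had 24, 6 and 23 counts in p53-null and 11, 10 and 3 in p53-WT. When replicate 1 of both groups, which stood apart, was left out, 6 members were higher and 2 lower, with DUSP10 added (0.39, adjusted p = 0.0445). DUSP14 then differed by 1.65 and DUSP1 by 1.16.

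The DMSO libraries of TOV-112D and the p53-null Saos-2 libraries were also set side by side, in 1 fit of all 12 libraries. The lines differ in every respect and were handled separately (DMSO for 3 h, induction for 16 h), so line, p53 status and handling cannot be told apart. DUSP4 and DUSP10 passed the filter there through libraries other than DMSO. Of the other 8 members, DUSP6 and DUSP8 were higher in the DMSO libraries and 3 were lower, where 37.0% of the 16804 genes tested were higher and 36.9% lower. DUSP6 was at 162 and 158 CPM in DMSO and 30.1, 37.5 and 35.6 in p53-null, a log2 difference of 2.22 ± 0.12 (adjusted p = 2.83e-09). DUSP8 was at 6.98 and 7.74 against 0.895 to 1.33 CPM (2.66 ± 0.16, adjusted p = 7.72e-09). With 1 identifier per symbol the DUSP8 difference was 4.45 (adjusted p = 6.88e-08). With an offset for transcript length the DUSP8 difference was 0.32 and not called (adjusted p = 0.520). That offset took its lengths from ENSG00000184545 alone, which had 1, 6 and 3 counts in p53-null, and so does not match the summed counts.

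The nuclear gene DUSP5 was at 3.81 and 5.43 CPM in DMSO and 146, 169.6 and 169 in p53-null, and was 34.97-fold lower in DMSO (log2 -5.13 ± 0.17, adjusted p = 4.01e-11). DUSP1 was at 10.5 and 10.1 against 41.9 to 49.3 CPM (-2.16 ± 0.18, adjusted p = 2.67e-07). The scarce DUSP4 had 3 counts in both DMSO libraries together and 47 in p53-null, a scaled ratio of 9.72 (exact 95% interval 3.13 to 48.8). DUSP10 had 1 count against 286, a scaled ratio of 177 (31.6 to 7031). Both intervals cover counting error only, and the edgeR p-values of these genes are not given because each was tested only through the libraries in which it was high. DUSP7 differed by -0.56 ± 0.11 (adjusted p = 0.000656). DUSP2, DUSP14 and DUSP16 were not called, with differences of 0.01, -0.12 and 0.18. DUSP2 and DUSP14 overlapped between the lines, and DUSP16 did not.

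Other genes of the pathway were read in the same fits. Over all 14985 genes tested, 7.73% rose and 5.22% fell with UCI-1001, and 22.7% rose and 21.5% fell with UCI-1014. Of the 10 immediate early genes, 9 rose in the UCI-1001 libraries and 10 in the UCI-1014 libraries. None fell by edgeR or DESeq2, or at an unadjusted p under 0.05 (0 genes). Their median log2 change was 1.58 for UCI-1001 and 2.52 for UCI-1014. The stress factor gene ATF3 rose by 4.05 ± 0.27 (SE) and 5.73 ± 0.23, JUN by 3.64 ± 0.23 and 4.13 ± 0.22, and FOS by 3.25 ± 0.29 with UCI-1001. FOSB rose by 4.16 ± 0.20 with UCI-1014. IER3 was the gene not called with UCI-1001.

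The ERK feedback inhibitors, Sprouty and Spred proteins with ERRFI1 and IL17RD, moved less. Of the 9 tested, edgeR and DESeq2 called 0 with UCI-1001, although 2 were higher and 1 lower at an unadjusted p under 0.05. With UCI-1014, 5 rose and 1 fell. ERRFI1, an inhibitor of the EGF receptor, rose by 1.24 ± 0.08, SPRY4 by 0.62 ± 0.08 and SPRY2 by 0.48 ± 0.14, and IL17RD fell by 0.42 ± 0.08. Of 5 tested ERK output genes, CCND1 fell with UCI-1001 (-0.23 ± 0.03) and 0 rose by edgeR or DESeq2 (1 at an unadjusted p under 0.05). With UCI-1014, PHLDA1 (0.81 ± 0.14) and EPHA2 (0.58 ± 0.07) rose, and CCND1 (-0.24 ± 0.03) and ETV4 (-0.21 ± 0.05) fell.

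The kinases themselves moved little with the compounds. Of 9 tested MAP kinase genes, 2 fell with UCI-1001, MAPK7 (-0.33 ± 0.07) and MAPK14 (-0.25 ± 0.05), and 0 rose by edgeR, by DESeq2 or at an unadjusted p under 0.05. With UCI-1014, 1 rose and 3 fell, MAPK7 (-0.66 ± 0.07), MAPK12 (-0.40 ± 0.06) and MAPK14 (-0.30 ± 0.05). Of 7 MAP kinase kinase genes edgeR and DESeq2 called 0 with UCI-1001 (1 was lower at an unadjusted p under 0.05). With UCI-1014 MAP2K4 (0.40 ± 0.08) and MAP2K3 (0.23 ± 0.06) rose and MAP2K2 fell by 0.20 ± 0.05. Of 14 tested phosphatase genes outside the 10 members, DUSP3 rose with UCI-1001 (0.17 ± 0.04) and UCI-1014 (0.49 ± 0.04), DUSP18 fell with UCI-1014 (-0.65 ± 0.15) and the others were not called.

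Between UCI-1014 and UCI-1001, 7 of the 10 immediate early genes were higher with UCI-1014, led by ATF3 (1.68 ± 0.14), FOSB (1.53 ± 0.15) and FOSL1 (1.48 ± 0.11). Over all genes tested, 16.2% were higher with UCI-1014 and 11.5% lower. Of the 9 ERK feedback inhibitors 5 were higher, led by ERRFI1 (1.04 ± 0.08), and of 5 ERK output genes 2 were higher, EPHA2 (0.51 ± 0.07) and ETV5 (0.17 ± 0.05), and ETV4 (-0.14 ± 0.05) was lower. MAP2K3, MAP2K4 and DUSP3 were higher by 0.29 to 0.42. Of 9 tested MAP kinase genes 1 was higher and 2 were lower, and MAPK12, MAPK7 and DUSP18 differed by -0.22 to -0.47.

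With p53-WT against p53-null, the lists were mixed, where 32.9% of the 15076 genes tested were higher and 32.1% lower. Of the immediate early genes 4 were higher, led by NR4A1 (3.69 ± 0.13), ATF3 (1.74 ± 0.13) and JUNB (1.36 ± 0.11), and 5 were lower, led by JUN (-0.88 ± 0.14). Of the ERK feedback inhibitors SPRY3 (2.87 ± 0.20), SPRY1 (2.78 ± 0.13) and IL17RD (0.42 ± 0.17) were higher and 4 were lower, led by SPRY4 (-1.32 ± 0.12). Of the ERK output genes EPHA2 (2.21 ± 0.11) was higher and 3 were lower, among them ETV5 (-1.33 ± 0.10) and ETV4 (-0.67 ± 0.10), which, like DUSP6, are known ERK-responsive genes. Of 10 MAP kinase genes 3 were higher, the p38 genes MAPK11 (2.50 ± 0.14), MAPK14 (1.12 ± 0.09) and MAPK12 (0.89 ± 0.17), and 2 were lower, MAPK7 (-1.06 ± 0.11) and the JNK gene MAPK8 (-0.39 ± 0.13). The remaining p38 gene, MAPK13, was not called (0.28 ± 0.30). Of 6 tested MAP kinase kinase genes 4 were higher, led by MAP2K4 (1.16 ± 0.11). Of 12 tested phosphatase genes outside the members 4 were higher, led by DUSP22 (1.06 ± 0.10), and 2 lower.

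Between DMSO and p53-null, 8 of 10 immediate early genes were lower in DMSO, led by FOSL1 (-5.10 ± 0.14), and 2 were higher. Over all 16804 genes tested, 37.0% were higher in DMSO and 36.9% lower. Of the other lists, 4 of 9 ERK feedback inhibitors, 2 of 6 ERK output genes, 3 of 10 MAP kinases, 3 of 7 MAP kinase kinases and 7 of 14 other phosphatase genes were higher, and 5, 3, 4, 4 and 4 were lower.

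**Figure D4:**
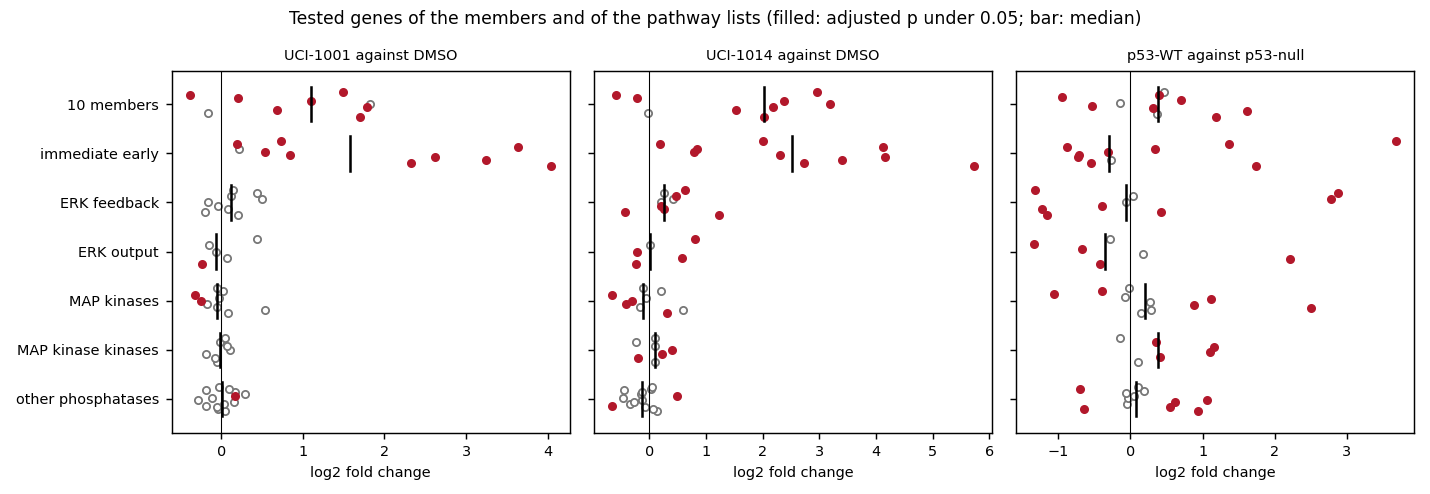
Log2 fold change (x axes) of each tested gene of the 10 members and of 6 pathway lists (y axis) in 3 comparisons, with filled points for an adjusted p under 0.05 and a bar for the median of each list. The immediate early genes and the members lie furthest to the right, with drawn medians of 1.58 and 1.10 with UCI-1001 and of 2.52 and 2.02 with UCI-1014. The drawn member medians include DUSP4, which passed the filter only through the UCI-1014 libraries. Without DUSP4 the member medians were 0.89 with UCI-1001 and 1.77 with UCI-1014.

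The genes most like DUSP8 and DUSP4, the members with the largest fitted change with UCI-1014 among those tested, were picked by Pearson's r of log2 CPM over the 12 libraries, after centring each cell line. All points share the libraries and their depth, and r is given as a description. For DUSP8 they were RBM23, XBP1, HPS5, MXD1 and RANGAP1 (r of 0.979 to 0.986). XBP1, a transcription factor of the unfolded protein response, changed by 1.48 with UCI-1014 on the log2 scale and MXD1, a MAX partner, by 4.31. For DUSP4 they were CTH, HBEGF, EPG5, RBM24 and GMEB2 (r of 0.932 to 0.977), from very few DUSP4 counts.

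The deposited transcript estimates were read for the make-up of the GENCODE identifier of each gene, with no test, and the other identifiers of DUSP8 and DUSP16 are outside these shares. Reads of DUSP6 were divided among 4 transcripts, of which ENST00000308385 took 41.5% of the TPM in DMSO, 35.4% in UCI-1001 and 38.2% in UCI-1014. For DUSP8, the long coding transcript ENST00000397374 took 66.9% to 84.6% in DMSO, 88.1% to 89.4% in UCI-1001 and 69.6% to 70.5% in UCI-1014. The remainder of this DUSP8 identifier in UCI-1014 was ENST00000528778, a 637-base transcript without a defined coding sequence (29.5% to 30.4% of the TPM). That share is per length and rests on few reads. ENST00000528778 had 18.9 and 20.7 estimated counts in UCI-1014, beside 491 and 506 for ENST00000397374. In DMSO it had 3.12 and 1.24. For DUSP16, ENST00000298573 took 83.2% to 90.7% in DMSO and 70.5% to 80.7% in UCI-1014.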

How the data were processed

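RNA sequencing of TOV-112D and Saos-2 cells was read from the authors' files. The authors quantified reads against GRCh38 with kallisto 0.48.0, summed the estimated counts of the transcripts of each Ensembl gene and deposited them as whole-number counts. They also deposited estimated counts, effective lengths and TPM for 187626 transcripts per library. The submitters' notes also name DESeq2 1.38.3.

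Counts were summed by symbol for the members and the pathway lists, which were chosen with earlier results of these data known. Genes were tested with edgeR 4.0.16 (TMM, filterByExpr, quasi-likelihood, Benjamini-Hochberg adjustment, limma 3.58.1, R 4.3.3), with 1 fit per cell line and 1 fit of all 12 libraries for the comparison of lines. A gene was called at an adjusted p under 0.05. The scripts were tested on simulated data. SE was derived from the F statistic. The 95% intervals used SE and the degrees of freedom at which the t distribution gives the reported p-value, which exceed the residual ones. CPM used TMM library sizes. TPM of a member was its summed count per effective length of its GENCODE transcripts, scaled to the deposited transcripts.

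All 10 members were described in every comparison. From each list, up to 3 genes called in each direction were named, by the largest change; for the 2 tested members with the largest fitted change with UCI-1014, the 5 most alike genes were named. IER3, ETV5, DUSP3 and other single genes outside this rule were chosen after their values were seen. Alternatives were DESeq2 1.42.0, RLE size factors, no filter, all 12 libraries in 1 fit, a replicate block, a transcript length offset, 1 identifier per symbol, a fold threshold and each library left out. Tables were made in Python 3.11.15 (scipy 1.17.1). Some genes of the lists and checks are not reported here.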

Additional observations from a re-analysis of the deposited data

How the results depend on the processing

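Depth and n limited the results: a count of 0 allows up to 3 counts, or 0.122 to 0.169 CPM by library, and counts of 0 to 15 make DUSP4 and DUSP10 in TOV-112D uncertain. The replicate numbers did not pair the libraries (correlations of -0.13 to 0.05 in TOV-112D and 0.05 to 0.13 in Saos-2). With a replicate block 6 members rose and 1 fell for UCI-1001, and 6, DUSP4 among them, rose and 2 fell for UCI-1014. For p53-WT 5 were higher and 2 lower, and no member call changed. Over all genes the block gave 1448 of 14985, 6208 of 14985 and 10089 of 15076 calls in either direction. With the crossed pairing, chosen after seeing the data, 5 members were higher with UCI-1014 than with UCI-1001.

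Counts of members depended on the processing as follows. Where no cause is given, the cause was not tested. DUSP4 and DUSP10 are counted where they were tested, including where they entered only through libraries in which they were high. Calls over all genes for several of these settings are given in the last paragraph. For UCI-1001 6 members rose, but 5 with an offset for transcript length or in fits of all 12 libraries, 4 with a log2 fold change above 1 also required, and 4 to 6 when a library was left out (4 without DMSO replicate 1). For UCI-1014 6 rose, DUSP4 among them, but 7 with no filter on low counts or in fits of all 12 libraries. Fewer rose when some libraries were left out. With a log2 fold change above 1 also required, 0 members fell or were lower in the 4 comparisons within a line and 2 were higher with p53-WT. For UCI-1001, 0 fell with an offset for transcript length or in fits of all 12 libraries, and 0 to 1 when a library was left out. For UCI-1014, 1 fell in fits of all 12 libraries and 1 to 2 when a library was left out. For UCI-1014 against UCI-1001, 5 were higher with no filter on low counts, 3 to 5 when a library was left out, and 0 were lower in the edgeR fit of all 12 libraries. For p53-WT, 1 was lower with DESeq2 and 1 to 2 when a library was left out. For DMSO against p53-null, 1 was higher with the length offset.

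Signs turned only in uncalled members. DUSP8 with p53-WT was at -1.32 with the length offset, which took its DUSP8 lengths from ENSG00000184545 alone and does not match the summed counts. When a library was left out, DUSP14 with UCI-1014 ran from -0.0882 to 0.0553, DUSP1 between compounds from -0.0178 to 0.60, DUSP4 with p53-WT from -0.31 to 0.033 and DUSP2 between lines from -0.0225 to 0.0418.

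Over all genes, 1941 of the 14985 entered were called with UCI-1001, in either direction. The length offset gave 663 of 11962. The DESeq2 and edgeR fits of all 12 libraries gave 446 of 26871 and 291 of 16804. Fewer than 1941 were also called without either DMSO replicate or without either UCI-1001 replicate, which left 1 library in a group. For UCI-1014 6623 of 14985 were called, 3963, 3475 and 3375 with the length offset and in those fits of all 12 libraries, and 7060 of 24344 with no filter. Between the compounds 4145 of 14985 were called, 1957, 1238 and 867 in the same order, and 4706 of 24344 with no filter. Fewer than 4145 were called when any single TOV-112D library was left out. For p53-WT 9796 of 15076 were called, and 9599 of 24306 with DESeq2. For DMSO against p53-null 12425 of 16804 were called, and 9542 of 13329 with the length offset.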
